A study of Mus musculus with 6 samples.

Results

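The genes that copy DNA were followed in primary mouse embryonic fibroblasts (pMEFs) with and without the histone acetyltransferase HAT1. The group held 59 genes for origins and forks, chosen by symbol: licensing factors, the CMG helicase and its activators, polymerases, clamp and clamp loaders, factors that bind single strands and join flaps, fork protection factors, nucleotide supply, and 2 G1/S transcription factors. All 59 were found among the 17512 genes with RNA-seq counts, and all 59 were among the 14773 genes that passed a filter on low counts. The HAT1 WT group was pMEF lines 36, 47 and 78, and the HAT1 KO group was lines 33, 41 and 72. All 6 lines had the C57bl6 background, and no treatment is given for any. Per the methods of the study, such cells came from embryos at mid-gestation whose internal organs had been removed. The labels give neither the knockout allele nor whether each line was a separate embryo. P-values therefore measure the spread between these 6 lines, which may be partly technical.

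A eukaryotic origin is prepared in G1, when the origin recognition complex (ORC) with CDC6 and CDT1 loads the MCM2-7 hexamer onto DNA. In S phase, kinases and firing factors join CDC45 and GINS to MCM2-7, which makes the active CMG helicase, and polymerases epsilon, delta and alpha-primase then copy the opened strands. Most of these genes are known to be transcribed in waves at the G1/S boundary under E2F factors, and their RNA is known to be higher in cycling cells. In bulk samples such as these, more cells in S phase and more RNA per cell cannot be told apart.

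Library totals ran from 67720628 to 98786746 counts, and the 59 genes held 0.135% to 0.178% of the counts in WT lines against 0.186% to 0.213% in KO lines. Hat1 itself stood at 17.4, 23.0 and 20.1 CPM (counts scaled to library size) in WT lines 36, 47 and 78, and at 10.2, 10.0 and 10.3 CPM in KO lines 33, 41 and 72. The KO mean was 50.4% of the WT mean (log2 fold change -0.99, SE 0.12, edgeR adjusted p = 0.0376), so reads from the gene remained in the KO lines. Summed CPM of 9 fibroblast markers was 60871 to 68794 in WT and 46349 to 78361 in KO, lowest in KO line 72. All 10 blood markers were lower in KO at unadjusted p under 0.05, 8 of them also at adjusted p under 0.05, none was at 0, and their sum was 4855 to 5257 CPM in WT against 2360 to 2892 CPM in KO. Y-linked genes summed to 183, 160 and 2.33 CPM in WT lines 36, 47 and 78 and to at most 0.118 CPM in the KO lines. The part of these differences in the replication genes was not tested.

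Sequence upstream of the start sites is shown for 6 of the genes, because E2F factors are known to act at such promoters and the values below concern genes with and without the motif. RefSeq (GRCm38.p6) gave promoter windows, from 250 bases before to 50 bases after a start, for 49 of the 59 genes. The 200 bases before the start are printed 5′ to 3′ on the strand of the gene, for genes whose printed stretch held no annotated part of the gene. Capitals mark matches on either strand to the E2F core, whose searched forms were TTCCCGC, also TTCGCGC, further TTGCCGC, and lastly TTGGCGC. A match can overlap another, as in both capital stretches of Mcm6. The last gene, Pold4, had no match and a log2 fold change of KO over WT of -0.08, the lowest of the 59. Other genes that could have been printed and had no match in any window were all positive. They were Orc2 (0.15), Orc6 (0.21), Mcm2 (0.39), Mcm10 (0.61), Dbf4 (0.53), Pola2 (0.39), Rpa1 (0.41) and Tyms (0.55). Of the printed genes with matches, Mcm6, Pola1 and Rrm1 did not reach unadjusted p under 0.05 in edgeR.
Mcm5, chr8:75109309-75109508, plus strand: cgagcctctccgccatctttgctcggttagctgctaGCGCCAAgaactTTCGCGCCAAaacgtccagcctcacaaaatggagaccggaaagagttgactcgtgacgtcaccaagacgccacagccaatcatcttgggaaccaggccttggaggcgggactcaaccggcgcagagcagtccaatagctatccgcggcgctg
Mcm6, chr1:128359706-128359905, minus strand: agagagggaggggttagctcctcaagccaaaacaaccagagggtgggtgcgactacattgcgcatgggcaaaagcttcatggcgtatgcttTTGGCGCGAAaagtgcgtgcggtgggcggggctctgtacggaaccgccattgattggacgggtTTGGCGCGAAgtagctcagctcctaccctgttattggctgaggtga
Pola1, chrX:93632156-93632355, minus strand: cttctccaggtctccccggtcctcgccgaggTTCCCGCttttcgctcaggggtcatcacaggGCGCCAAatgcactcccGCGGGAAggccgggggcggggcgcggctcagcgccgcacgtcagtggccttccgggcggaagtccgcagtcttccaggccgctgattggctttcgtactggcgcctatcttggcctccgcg
Rrm1, chr7:102441495-102441694, plus strand: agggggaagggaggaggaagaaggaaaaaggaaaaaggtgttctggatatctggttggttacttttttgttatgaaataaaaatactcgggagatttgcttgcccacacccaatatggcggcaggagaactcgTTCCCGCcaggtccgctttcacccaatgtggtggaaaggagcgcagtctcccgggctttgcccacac
Tcf19, chr17:35516825-35517024, minus strand: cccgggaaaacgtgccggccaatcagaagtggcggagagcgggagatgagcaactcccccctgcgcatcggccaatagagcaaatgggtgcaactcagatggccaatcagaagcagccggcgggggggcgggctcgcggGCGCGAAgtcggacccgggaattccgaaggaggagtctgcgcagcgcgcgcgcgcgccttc
Pold4, chr19:4231693-4231892, plus strand: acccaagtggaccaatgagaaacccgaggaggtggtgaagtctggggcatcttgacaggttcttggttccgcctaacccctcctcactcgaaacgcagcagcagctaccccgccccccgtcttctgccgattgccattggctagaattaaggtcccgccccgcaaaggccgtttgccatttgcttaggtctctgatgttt

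Of the 59 windows of the group, 59.3% held an E2F core, against 15.8% of the windows of all tested genes and 9.57% of all windows in the RefSeq table. The CCAAT box, searched as CCAAT on both strands, was in 49.2% of the windows of the group and in 37.2% of those of tested genes. It was in all 8 windows of the 7 CMG helicase genes that had one. The GC box GGGCGG stood at 72.9% against 59.9%, and the CHR element of late cell cycle genes (TTTGAA or TTCGAA) at 16.9% against 14.2%. An E2F core was present for 31 genes, of which 17 were higher in KO at unadjusted p under 0.05, with a median log2 fold change of 0.43. It was absent for 18 genes, of which 8 were higher, with a median of 0.37. Over all tested genes 5.88% were higher at that p, and this share was not split by the presence of a core. The difference between genes with and without a core was not tested. A match is a description of these letters and was not tested as a binding site.

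The replication genes were higher in the KO lines as a group, by a modest amount. In KO against WT, 56 of the 59 had a positive log2 fold change and 3 a negative one, with a median of 0.41 (1.33-fold, quartiles 0.26 and 0.53) beside 0.0085 over all 14773 tested genes. At unadjusted p under 0.05 in edgeR's quasi-likelihood test, 31 of 59 were higher, where 5.88% of all tested genes were, and 0 were lower, where 8.77% were. With a change of at least 1.5-fold as well, 11 were higher, beside 1.5% of all genes. None passed an adjusted p of 0.05, which 0.528% of all tested genes did, and the smallest adjusted p in the group was 0.104 (edgeR, Chtf18). Beside that 0, DESeq2 gave 12 genes at adjusted p under 0.05, where it called 6.14% of the genes it gave an adjusted p. With limma voom the number was 0. All 3 KO lines were above all 3 WT lines for 31 of the 59 genes, against 9.59% of all genes, and below them for 0, against 12.4%. With 3 lines a side, permuting the lines exactly allows no p below 0.1 for a gene, and these 31 genes sat at that limit. The 31 genes higher at unadjusted p under 0.05 were Cdc6, Mcm2, Mcm3, Mcm4, Mcm5, Mcm7, Cdc45, Gins1, Mcm10, Cdc7, Pola2, Prim1, Prim2, Pold2, Pole, Pole2, Pole3, Rfc2, Rfc3, Rfc4, Chtf18, Rpa1, Rpa2, Lig1, Tipin, Clspn, Wdhd1, Rrm2, Tk1, Tyms and Tcf19. Of these Pole and Tyms had overlapping lines, while Orc2 and Gmnn had separate lines without reaching that p.

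**Figure D1:**
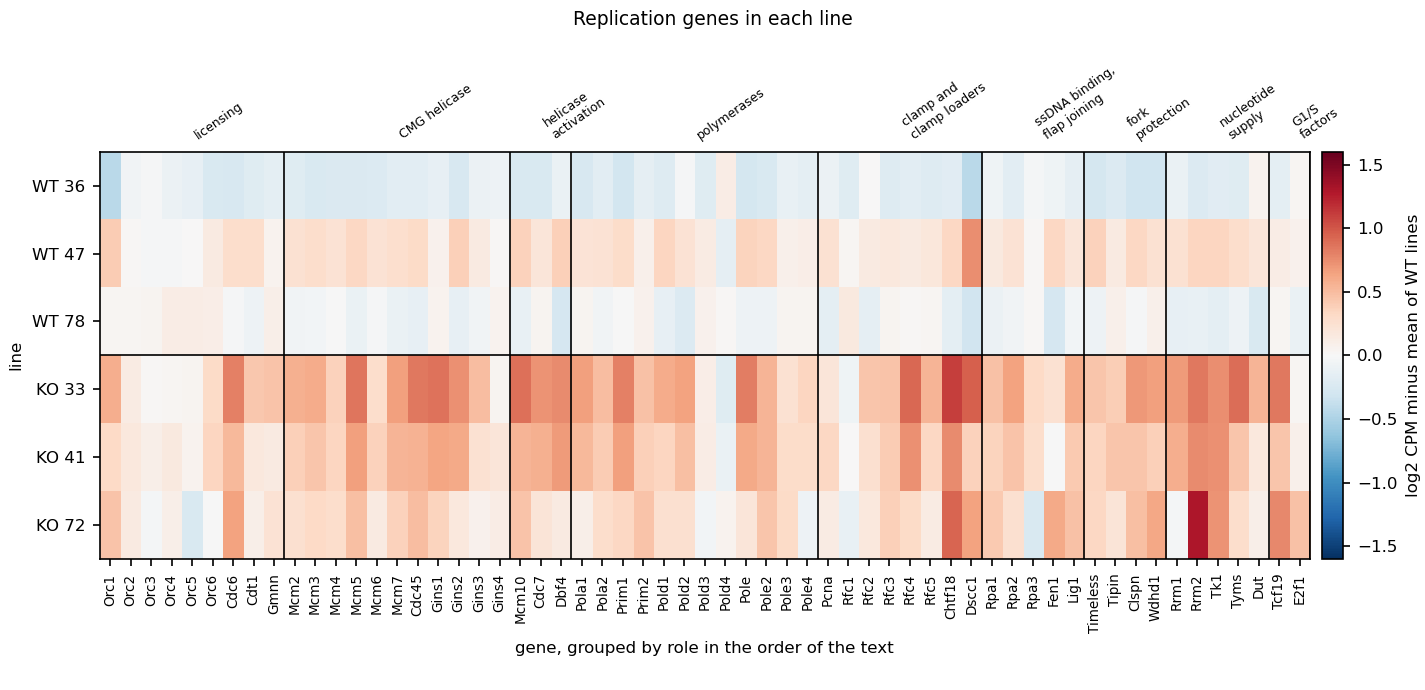
Heat map of log2 CPM minus the mean of the WT lines for the 59 genes (columns, by role) in the 6 lines (rows), red for higher and blue for lower. KO line 33 is the highest line for 42 genes and WT line 36 the lowest for 46.

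The lines of a genotype were not alike. Among WT lines, line 47 was the highest for 50 of the 59 genes, and line 36 was the lowest of all 6 lines for 46. Among KO lines, line 33 was the highest of all lines for 42 genes and line 72 was the lowest KO line for 40. The summed CPM of the group was 1362, 1757 and 1464 in WT lines 36, 47 and 78 and 2148, 2012 and 1855 in KO lines 33, 41 and 72, so the closest pair was KO line 72 and WT line 47. KO line 72 was above WT line 47 for 37 of the 59 genes (median log2 difference 0.05), whereas KO lines 33 and 41 were above it for 53 and 51. Within a sequencing lane, as the labels name it, WT line 47 shared lane 6 with KO lines 33 and 72, and these 2 were the higher for 53 and 37 genes. In lane 7 KO line 41 was above WT line 78 for 56 of 59. WT line 36 was alone in lane 8.

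The count of 31 depended on single lines, as did the share of all tested genes higher at the same p. The count was 15 without WT line 36 (3.02% of all genes), 16 without WT line 78 (3.11%), 16 without KO line 33 (4.3%) and 19 without KO line 41 (5.41%). It was 41 without WT line 47 (5% of all genes) and 39 without KO line 72 (9.06%). The median stayed between 0.31 and 0.55 over these 6 fits. A fit with lane in the model takes nothing on genotype from WT line 36, which is alone in lane 8. With lane in the model the count was 11, where the share of all genes fell to 1.39%, and the median was 0.30. Without WT lines 36 and 47, which had many Y-linked counts, it was 23 (3.4% of all genes) and the median 0.49. That fit has 1 WT line, which is assumed to vary like the KO lines, so its spread comes from KO alone. In each of the 6 fits without a line, 54 of the 59 genes kept a positive log2 fold change and 15 stayed at unadjusted p under 0.05. In all 15 alternative settings, the fit with 1 WT line included, 8 stayed there: Chtf18, Lig1, Mcm5, Prim2, Rpa1, Rrm2, Tcf19 and Tk1.

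Mitosis genes also varied between the lines of a genotype. All 16 genes of a mitosis list had a positive log2 fold change (median 0.68). At unadjusted p under 0.05, 6 were higher, beside 5.88% of all tested genes. For 0 of the 16 were all KO lines above all WT lines, beside 9.59% of all tested genes. Their median difference from the WT mean was -0.20, 0.48 and -0.23 in WT lines 36, 47 and 78 and 1.12, 0.71 and 0.24 in KO lines 33, 41 and 72, so KO line 72 lay below WT line 47. Those of the replication genes were -0.18, 0.23 and -0.04 for WT and 0.55, 0.38 and 0.26 for KO, with no overlap. The mean log2 CPM of the mitosis list was 4.26, 4.96 and 4.22 in WT lines 36, 47 and 78. In KO lines 33, 41 and 72 it was 5.52, 5.14 and 4.72. Since this mean differed between the genotypes, a fit with it also takes out part of any genotype difference. With the mean of the mitosis list in the model, 51 replication genes had a positive log2 fold change and 8 a negative one. The median was 0.14, and 9 were higher at unadjusted p under 0.05, beside 4.45% of all genes. The 8 negative genes were Orc5, Cdt1, Pold3, Pole4, Rfc1, Rpa3, Rrm1 and Dut, of which Orc5 and Rfc1 were negative without the mitosis mean too. Plk1, a mitotic kinase, had the largest log2 fold change of the mitosis list at 0.82 (SE 0.33), and Cenpf, a kinetochore protein, the smallest at 0.30 (SE 0.26).

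**Figure D2:**
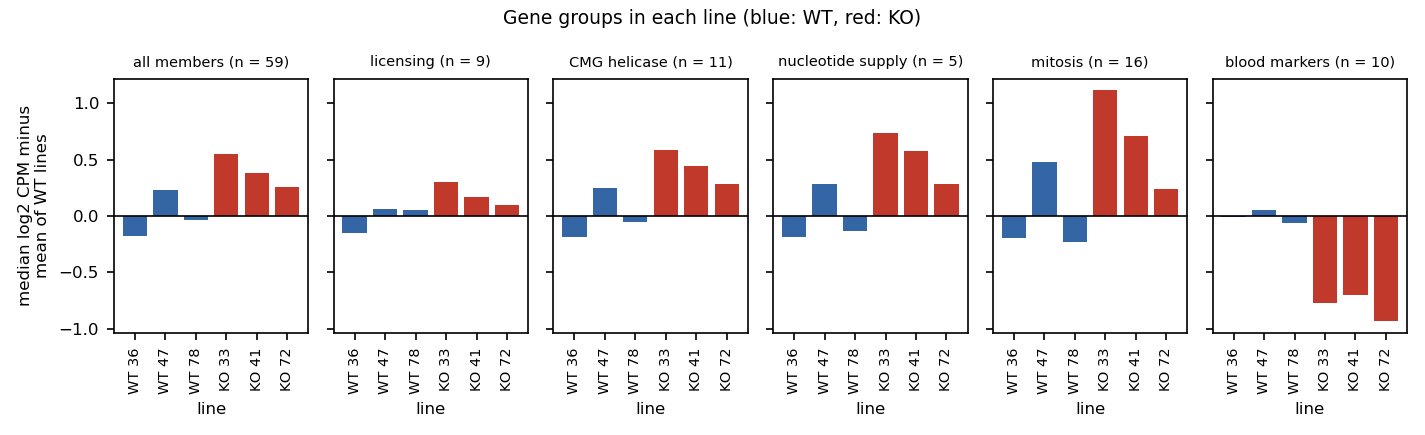
Bars give the median, over the genes of a list, of log2 CPM minus the mean of the WT lines, for each line (blue WT, red KO). The 59 replication genes lie between 0.26 and 0.55 in KO lines, mitosis genes span 0.24 to 1.12, and the blood markers are below 0 in all 3 KO lines.

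Of 9 licensing genes, 8 had a positive log2 fold change and the median was 0.21. At unadjusted p under 0.05, 1 was higher (11.1%), beside 5.88% of all tested genes. The median was the lowest of the 9 roles, but with the mitosis mean in the model it was 0.14, above those of clamp and clamp loaders (0.07), nucleotide supply (0.12) and polymerases (0.13). For the 6 ORC subunits, which mark origins, the count was 0 of 6 and the median 0.12. A count of 0 among 6 genes cannot be told from the share of all tested genes. Orc3 was nearly level, at 32.4, 32.4 and 34.1 CPM in WT and 33.4, 35.2 and 32.2 CPM in KO (log2 fold change 0.03, SE 0.07). Orc2 stood at 20.0, 20.9 and 21.2 CPM in WT lines and 22.6, 23.3 and 22.9 CPM in KO lines. Its groups did not overlap, yet the difference was small (log2 fold change 0.15, SE 0.07, edgeR adjusted p = 0.399), and 29.8% of its exon bases overlap Nif3l1 on the other strand. Orc5 was at 8.94, 9.84 and 10.6 CPM in WT and 10.1, 10.2 and 8.27 CPM in KO (log2 fold change -0.04, SE 0.13), with overlapping groups. Orc1, the subunit known to vary over the cell cycle, had a log2 fold change of 0.41 (SE 0.24) and overlapped as well.

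Cdc6, the ATPase that brings MCM2-7 to ORC, was the 1 licensing gene higher at unadjusted p under 0.05. It stood at 7.001, 10.1 and 8.30 CPM in WT lines 36, 47 and 78 and at 14.6, 12.0 and 13.1 CPM in KO lines 33, 41 and 72. Every KO line was above every WT line (log2 fold change 0.64, SE 0.16, edgeR adjusted p = 0.175). Cdt1, the partner of CDC6 in MCM loading, was at 20.0, 27.8 and 21.8 CPM in WT and 31.0, 25.8 and 24.4 CPM in KO. Its groups overlapped (log2 fold change 0.22, SE 0.16), and with the mitosis mean in the model its sign turned (-0.09). Gmnn, which encodes the CDT1 inhibitor geminin, was at 5.82, 6.77 and 6.92 CPM in WT and 8.93, 7.19 and 7.58 CPM in KO (log2 fold change 0.28, SE 0.14, edgeR adjusted p = 0.414). The ratio of Cdt1 to Gmnn CPM was 3.14 to 4.11 in WT and 3.22 to 3.59 in KO, so the KO values fell within the range of the WT values.

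The CMG helicase is built from the MCM2-7 ring, CDC45 and GINS. All 11 of its genes had a positive log2 fold change (median 0.44). At unadjusted p under 0.05, 7 were higher, and for 7 the groups did not overlap. Over all tested genes, 5.88% were higher and 9.59% had all KO lines above all WT lines. Of the MCM2-7 ring, 5 of 6 were higher, with log2 fold changes from 0.26 for Mcm6 (SE 0.13, edgeR adjusted p = 0.420) to 0.65 for Mcm5. Mcm5 was at 38.7, 56.6 and 42.2 CPM in WT lines and 82.1, 71.1 and 62.9 CPM in KO lines (SE 0.17, edgeR adjusted p = 0.186). Mcm7 was at 51.8, 70.3 and 54.0 CPM in WT and 91.5, 84.6 and 75.1 CPM in KO (log2 fold change 0.51, SE 0.14, edgeR adjusted p = 0.194). For both genes the lowest KO line, 72, lay above the highest WT line, 47.

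Mcm2, Mcm3 and Mcm4 had log2 fold changes of 0.39, 0.44 and 0.32 and no overlap. The separation was narrow for Mcm2, at 76.8 CPM in KO line 72 against 76.3 CPM in WT line 47. It was 75.2 against 73.7 CPM for Mcm3. Mcm6 alone of the ring had WT line 47 above KO line 72. Cdc45, the helicase cofactor, was at 8.53, 11.8 and 8.72 CPM in WT and 17.2, 14.1 and 13.5 CPM in KO (log2 fold change 0.63, SE 0.17, edgeR adjusted p = 0.194). The 4 GINS genes encode the other cofactor. Gins1 was higher at 0.63 (SE 0.19, edgeR adjusted p = 0.226), Gins2 and Gins3 overlapped at 0.49 and 0.27, and Gins4 was at 0.11 (SE 0.08). For Gins2, 67.3% of exon bases overlap Gse1, so that its count is uncertain where strand was not used.

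Both genes of the Cdc7-Dbf4 kinase, which phosphorylates MCM proteins at origins, and Mcm10, needed to activate CMG, had log2 fold changes near 0.5 to 0.6. Mcm10 was at 7.03, 10.7 and 7.67 CPM in WT and 15.3, 12.1 and 11.5 CPM in KO (0.61, SE 0.20, edgeR adjusted p = 0.254). Cdc7 was at 2.57, 3.50 and 3.15 CPM in WT and 5.04, 4.54 and 3.53 CPM in KO (0.51, SE 0.21, edgeR adjusted p = 0.334). In Cdc7 the lowest KO line exceeded the highest WT line only narrowly. Dbf4, the regulatory subunit, was at 16.7, 23.4 and 14.9 CPM in WT and 30.5, 28.8 and 19.9 CPM in KO, with overlap between KO line 72 and WT line 47 (0.53, SE 0.23, edgeR adjusted p = 0.363).

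**Figure D3:**
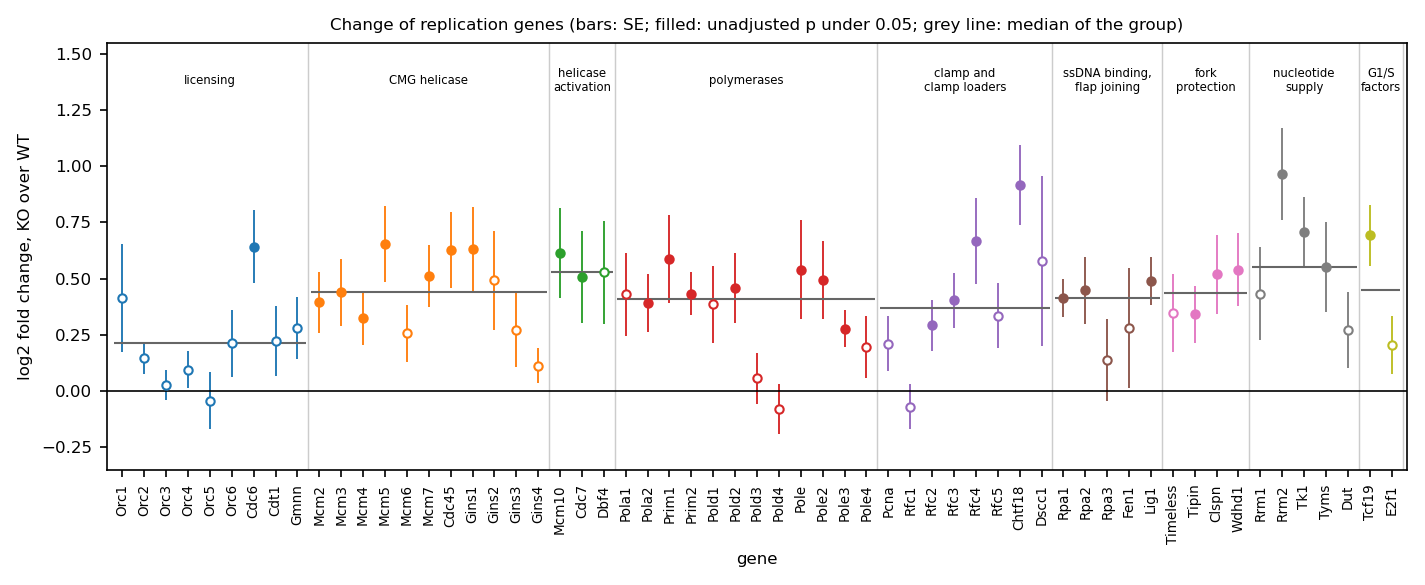
Log2 fold change of KO over WT for each of the 59 genes, with standard error bars, grouped by role; filled points have unadjusted p under 0.05 and grey lines are group medians. Licensing has the lowest median (0.21), which does not hold with the mitosis mean in the model, and Orc5, Pold4 and Rfc1 are below 0.

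Among polymerase genes 11 of 12 had a positive log2 fold change (median 0.41). At unadjusted p under 0.05, 7 were higher, beside 5.88% of all tested genes. All 4 subunits of DNA polymerase alpha-primase, which lays the first primers, were between 0.39 and 0.59, and 3 were higher. Prim2, the large primase subunit, stood at 11.2, 13.2 and 13.0 CPM in WT and 17.2, 16.2 and 17.1 CPM in KO (log2 fold change 0.43, SE 0.10, edgeR adjusted p = 0.135). Pola2, its regulatory partner, was at 12.6, 16.5 and 13.6 CPM in WT and 20.0, 18.8 and 17.2 CPM in KO (0.39, SE 0.13). Prim1, the catalytic primase subunit, had 0.59 (SE 0.20). Pola1, the catalytic polymerase subunit and the only X-linked gene of the group, overlapped (0.43, SE 0.18, edgeR adjusted p = 0.357).

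The leading strand polymerase epsilon and the lagging strand polymerase delta share the fork. At unadjusted p under 0.05, 3 of 4 epsilon genes (median 0.39) and 1 of 4 delta genes (median 0.22) were higher. Among all tested genes 5.88% were, and a count of 1 among 4 is hard to tell from that share. The difference between the complexes was not tested. Pole3, a small histone-fold subunit of epsilon, was at 19.0, 21.8 and 21.4 CPM in WT and 24.4, 25.5 and 25.5 CPM in KO (0.28, SE 0.08, edgeR adjusted p = 0.222). Pole and Pole2 had 0.54 and 0.49, although for Pole the lowest KO line lay below WT line 47. In delta, the accessory subunit Pold2 was higher at 0.46 (SE 0.15, edgeR adjusted p = 0.266), the catalytic Pold1 overlapped at 0.38 (SE 0.17), and Pold3 was at 0.06 (SE 0.11). Pold4, the smallest subunit, was at 16.8, 14.0 and 15.7 CPM in WT and 13.6, 14.4 and 16.1 CPM in KO (-0.08, SE 0.11), with overlapping groups. Another gene on the same strand shares 24.6% of the exon bases of Pold4.

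Clamp loaders held the gene with the smallest p of all 59. Of the 8 clamp and loader genes 7 had a positive log2 fold change (median 0.37). At unadjusted p under 0.05, 4 were higher, beside 5.88% of all tested genes. Chtf18, the large subunit of an alternative loader that acts at forks and in sister chromatid cohesion, stood at 7.03, 10.0 and 7.12 CPM in WT lines 36, 47 and 78 and at 17.0, 13.4 and 15.2 CPM in KO lines 33, 41 and 72. It was 1.89-fold higher with every KO line above every WT line (log2 fold change 0.92, SE 0.18, edgeR adjusted p = 0.104). Rfc1, the large subunit of the canonical loader, was at 43.3, 50.5 and 55.3 CPM in WT and 47.01, 49.7 and 45.4 CPM in KO (-0.07, SE 0.10). The ratio of Chtf18 to Rfc1 CPM was 0.162, 0.199 and 0.129 in WT lines and 0.363, 0.270 and 0.335 in KO lines, which did not overlap.

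The small RFC subunits are shared by these loaders. Rfc4 was at 4.35, 5.42 and 4.95 CPM in WT and 9.22, 8.11 and 6.05 CPM in KO (0.67, SE 0.19, edgeR adjusted p = 0.210). Rfc3 was at 7.11, 9.20 and 8.43 CPM in WT and 11.3, 10.8 and 10.7 CPM in KO (0.40, SE 0.12, edgeR adjusted p = 0.228). Both separated the genotypes, and Rfc2 did so with a smaller difference (0.29, SE 0.11). Rfc5 overlapped (0.33, SE 0.14, edgeR adjusted p = 0.360). Dscc1, a partner of CHTF18, had few counts and overlapped (0.58, SE 0.38). Pcna, the clamp itself, was at 78.6 ± 12.2 CPM in WT and 91.0 ± 6.34 CPM in KO (SD, n = 3), also with overlap (0.21, SE 0.12).

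The genes that coat single strands and join flaps had a median log2 fold change of 0.41. At unadjusted p under 0.05, 3 of 5 were higher, beside 5.88% of all tested genes. Rpa1, the large subunit of the single-strand binding protein RPA, was at 76.2, 88.9 and 75.1 CPM in WT and 111, 102 and 107 CPM in KO. The lowest KO line was well above the highest WT line (0.41, SE 0.08, edgeR adjusted p = 0.119). Rpa2 was at 14.1, 18.7 and 15.3 CPM in WT and 24.9, 21.8 and 19.0 CPM in KO, where KO line 72 barely exceeded WT line 47 (0.45, SE 0.15). Rpa3 overlapped (0.14, SE 0.18). Lig1, the ligase that seals Okazaki fragments, was at 27.9, 35.2 and 30.1 CPM in WT and 46.8, 41.2 and 42.6 CPM in KO (0.49, SE 0.11, edgeR adjusted p = 0.132). Fen1, the flap endonuclease, had the fewest counts of the group and overlapped (0.28, SE 0.27). Opposite-strand genes at the same locus, mainly the antisense gene Gm10143, cover 84.2% of its exon bases, so its count is uncertain where strand was not used.

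The fork protection genes encode the Timeless-Tipin pair, Claspin and AND-1, which hold the helicase and polymerases together and relay checkpoint signals. Of 4 genes 3 were higher at unadjusted p under 0.05 (median 0.43), beside 5.88% of all tested genes. Wdhd1, which encodes AND-1, was at 10.5, 15.5 and 13.8 CPM in WT and 20.6, 17.1 and 20.1 CPM in KO (0.54, SE 0.16, edgeR adjusted p = 0.227). Clspn was at 12.1, 18.9 and 14.8 CPM in WT and 24.3, 20.4 and 20.9 CPM in KO (0.52, SE 0.18, edgeR adjusted p = 0.269). Tipin was at 11.9, 15.3 and 14.7 CPM in WT and 18.2, 19.0 and 16.0 CPM in KO (0.34, SE 0.13, edgeR adjusted p = 0.304). All 3 separated the genotypes, and Timeless did not (0.35, SE 0.17, edgeR adjusted p = 0.422).

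Nucleotide supply had a median of 0.55, with 3 of 5 genes higher at unadjusted p under 0.05, beside 5.88% of all tested genes. Rrm2, the S phase subunit of ribonucleotide reductase, which makes deoxynucleotides, was at 49.9, 73.9 and 53.5 CPM in WT lines 36, 47 and 78 and at 105, 98.3 and 143 CPM in KO lines 33, 41 and 72. It was 1.95-fold higher (0.96, SE 0.20, edgeR adjusted p = 0.124), the largest fold change of the 59 genes in that fit. Without KO line 72 its log2 fold change was 0.79, under that of Chtf18 at 0.93. Rrm1, the other subunit of the enzyme, was at 146, 186 and 143 CPM in WT and 253, 236 and 154 CPM in KO (0.43, SE 0.21, edgeR adjusted p = 0.405). With the mitosis mean in the model the sign of Rrm1 turned (-0.03). KO line 72 was the highest line for Rrm2 and the lowest KO line for Rrm1. The ratio of Rrm2 to Rrm1 CPM was 0.928 in that line, against 0.413 and 0.417 in the other KO lines and 0.341 to 0.397 in WT.

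The salvage enzyme Tk1 was at 15.9, 22.9 and 16.2 CPM in WT and 30.2, 30.1 and 29.7 CPM in KO, where the 3 KO lines were nearly equal (0.71, SE 0.15, edgeR adjusted p = 0.129). Tyms, which makes thymidylate, was at 13.5, 18.8 and 14.6 CPM in WT and 28.8, 21.1 and 18.8 CPM in KO. KO line 72 and WT line 47 were level for it, and the groups overlapped (0.55, SE 0.20, edgeR adjusted p = 0.3001). Dut, which removes dUTP, overlapped too (0.27, SE 0.17).

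Of the G1/S transcription factors 1 of 2 was higher at unadjusted p under 0.05, beside 5.88% of all tested genes. So few genes are hard to tell from that share. Tcf19, a gene known for induction late in G1, was at 11.7, 14.1 and 13.4 CPM in WT and 23.3, 17.7 and 22.3 CPM in KO (0.69, SE 0.14, edgeR adjusted p = 0.108), with no overlap. E2f1, an activating E2F factor, was at 39.9, 40.98 and 36.3 CPM in WT and 40.0, 41.4 and 53.8 CPM in KO. KO line 72 alone stood above the other 5 lines, and the groups overlapped (0.21, SE 0.13, edgeR adjusted p = 0.515).

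**Figure D4:**
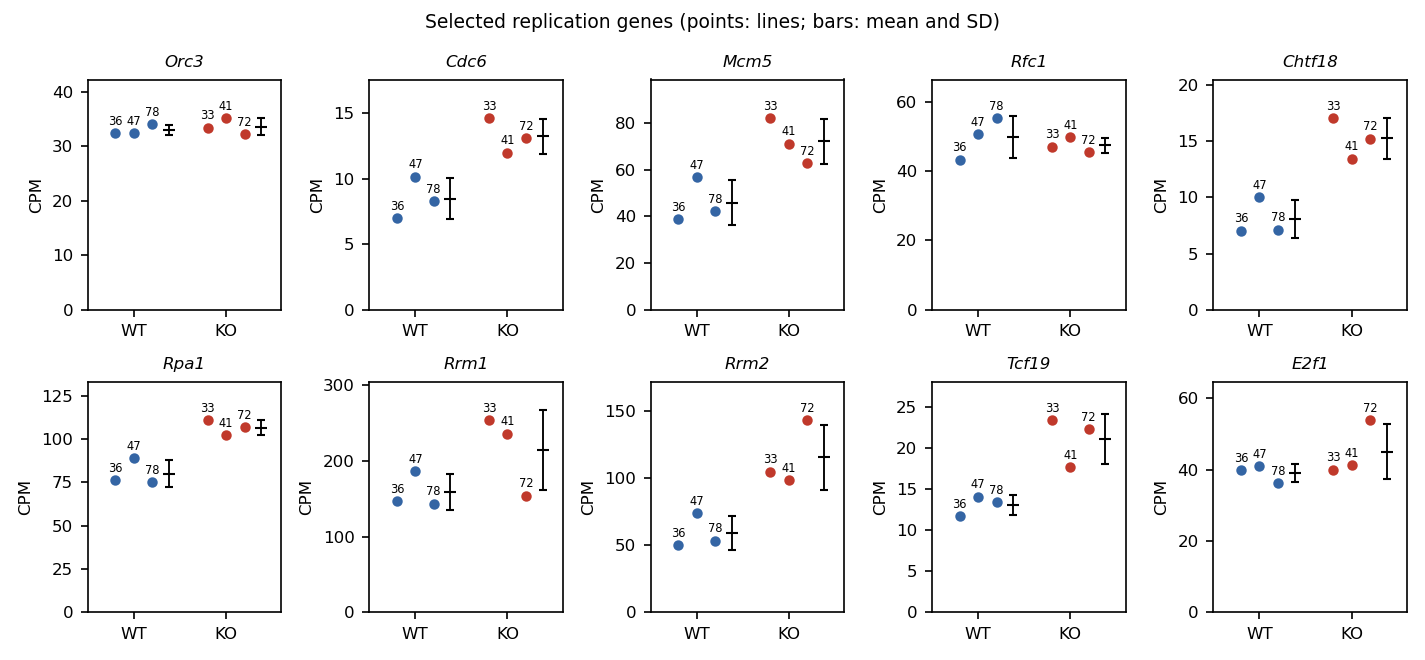
CPM in each line (points, numbered by line) of 10 genes, with the mean and SD of 3 lines per genotype. Cdc6, Mcm5, Chtf18, Rpa1, Rrm2 and Tcf19 have all KO lines above all WT lines, and Orc3, Rfc1, Rrm1 and E2f1 do not.

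Levels could be compared between genes only per length, here as CPM per kilobase of merged exons. In WT lines Pcna had the highest level at 32.7, followed by Rrm2 at 21.3, Mcm6 at 19.5, Mcm4 at 18.4 and Gins4 at 17.0. In KO lines Rrm2 came first at 41.6. The lowest levels in WT were those of Cdc7 at 0.735, Fen1 at 0.577 and Dscc1 at 0.303. That of Fen1 is uncertain, since opposite-strand genes cover 84.2% of its exon bases and the use of strand is not given. Neighbours such as Mcm6 and Mcm4 lay within their spread between lines. The order depended on the length used: per kilobase of the longest transcript, Pcna was at 51.8, Rrm1 at 29.0 and Mcm2 at 18.6, the last of these against 9.32 per kilobase of merged exons.

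**Figure D5:**
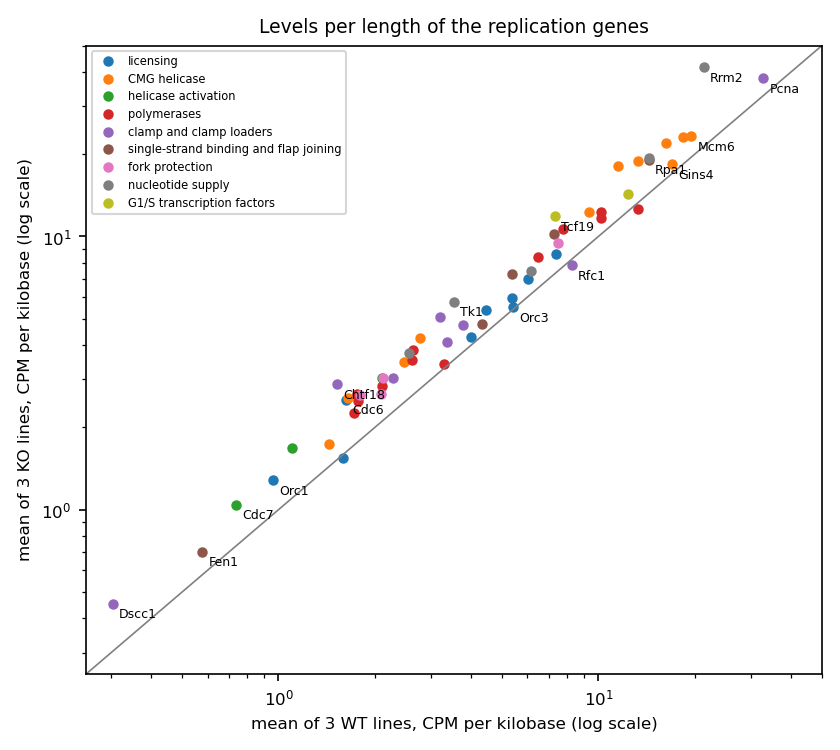
Mean CPM per kilobase of merged exons of the 59 genes in 3 KO lines against 3 WT lines, on log axes, coloured by role, with a line of equality. Most points lie above the line, while Rfc1, Pold4 and Orc5 lie below it and Orc3 close to it.

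Beyond the 59 genes, 63 further genes of 5 lists gave 50 with a positive log2 fold change, 19 higher and 4 lower at unadjusted p under 0.05, and a median of 0.25. Over all tested genes 5.88% were higher and 8.77% lower at that p, and the median was 0.0085. Of 13 other origin firing factors all 13 were positive and 6 were higher, among them Ccne2 at 0.54 (SE 0.11, edgeR adjusted p = 0.119), with Ccna2, cyclin A2, the largest at 0.77 (SE 0.31) and Mcmbp the smallest at 0.07. Of 8 licensing turnover genes 4 were higher, from Fbxo5, which encodes an inhibitor of the anaphase-promoting complex, at 0.73 (SE 0.23) to the ubiquitin ligase scaffold Cul1 at -0.03. Of 13 other fork factors 3 were higher and 1 lower, from the PCNA-binding factor Pclaf at 0.75 (SE 0.24) to topoisomerase I, Top1, at -0.25 (SE 0.06, edgeR adjusted p = 0.165). Top1 had all KO lines below all WT lines.

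Of 12 other nucleotide supply genes 4 were higher and 1 lower. Tk2, the mitochondrial thymidine kinase, had the smallest value at -0.24 (SE 0.08). Of 17 E2F and RB genes 2 were higher and 2 lower, where 5.88% and 8.77% of all tested genes were. So few genes are hard to tell from those shares. The repressors E2f7 and E2f8 were at 0.82 (SE 0.20, edgeR adjusted p = 0.156) and 0.67 (SE 0.16), and the pocket proteins Rb1 and Rbl2 at -0.21 (SE 0.09) and -0.32 (SE 0.13). None of the 63 genes passed an adjusted p of 0.05 in edgeR, which 0.528% of all tested genes did.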

How the data were processed

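RNA of 6 pMEF lines, 3 HAT1 WT and 3 HAT1 KO, was sequenced after TruSeq RNA (v2) library preparation, and groups were taken from the genotype label. The authors deposited a table of raw read counts per gene, with no normalization. The submitters' processing notes name mm10 and edgeR. The aligner, counter and use of strand are not given in the sources used here. Columns of the authors' test of KO against WT (fold changes, p-values) were left aside. There were 0 sample columns without a sample.

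Counts were tested over all genes that passed filterByExpr (14773) with edgeR 4.0.16 in R 4.3.3, using TMM scaling, genotype alone and the two-sided quasi-likelihood test, with Benjamini-Hochberg adjustment over all tested genes. CPM are TMM-scaled. The standard error is the log2 fold change divided by the square root of F. The steps were tested on simulated data. Alternatives were DESeq2 1.42.0 and its size factors, limma 3.58.1 (voom with quality weights), library size alone, other count filters, each line left out, WT lines 36 and 47 left out, and lane or the mean of the mitosis list as a covariate. Gene models are those of GENCODE M21, near-identical copies at another locus were sought with minimap2 2.31 and not found, and promoters are from RefSeq.

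The genes and lists were chosen with earlier results of these data known. Values in every line are given, per role, for the 3 genes with the smallest p and the most negative gene, for E2f1, Tcf19, Chtf18, Cdt1, Gmnn, Cdc6 and Hat1, and beyond that rule for Orc3 and Rrm1, chosen after their values were seen. For the comparison lists the highest and lowest genes are named, except for 1 gene not reported here, with Ccne2, E2f8 and Rb1 added after their values were seen.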

Additional observations from a re-analysis of the deposited data

How the results depend on the processing

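No paired analysis was possible because the genotypes share no replicate numbers. The number of genes higher at unadjusted p under 0.05 (31) was 29 to 37 under other scalings, filters and tests. It was 15 to 41 with a line left out (3.02% to 9.06% of all tested genes), 11 with lane in the model (1.39%) and 9 with the mitosis mean in the model (4.45%), beside 5.88% with neither. The number at adjusted p under 0.05 was 0 in all settings except DESeq2's Wald test, which gave 12. The number with all KO lines above all WT lines (31) was 30 to 49 with a line left out (14% to 19.5% of all genes) and 49 without WT lines 36 and 47 (28.6%), and these are not comparable with 31 since fewer lines have to be passed (9.59% of all genes with 6 lines). The median log2 fold change (0.41) was 0.31 to 0.55 with a line left out and fell to 0.14 with the mitosis mean in the model. That mean itself differed between the genotypes, so the fit takes out part of any genotype difference. The number lower at unadjusted p under 0.05 was 0 in every setting. Among genes given in every line by the naming rule, Orc5 turned to 0.040 and Rfc1 to 0.00070 with voom, Cdt1 to -0.089 and Pold4 to 0.11 with the mitosis mean. Of the other genes, Rrm1 (-0.03), Dut (-0.05), Pole4 (-0.05), Rpa3 (-0.10) and Pold3 (-0.08) also turned with the mitosis mean, and Pold3 with lane (-0.03). The lowest values with a line left out were also below 0 for Orc3 (-0.0025) and Pold3 (-0.03), and Orc3 (-0.0052) and Orc4 (-0.0067) were below 0 without WT lines 36 and 47. With a line left out Orc5 ran from -0.10 to 0.058 and Rfc1 from -0.16 to 0.021. The cause was not tested. For the 22 named genes with unadjusted p under 0.05, 272 of 330 alternative values kept that call, 58 lost it and 0 changed sign. Most of these 22 genes were named for a small p in the main fit, so keeping the call is partly built in. Genes outside the naming rule with that p kept it in 2 (such as Pole) to 5 (Gins1) of the 6 fits without a line. Counts per line limit Fen1 and Dscc1 most.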
